A study of Mus musculus with 4 samples.

Results

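Carm1 (Prmt4) is an arginine methyltransferase that works as a transcriptional coactivator, and the sites occupied by it in mouse neural stem cells (NSCs) were described here across genes. The series held 4 samples of untreated NS-5 NSCs grown with EGF and FGF2, which differed in the antibody used for chromatin immunoprecipitation (ChIP): Carm1, Jmjd1c, Med1 and, as the control, normal rabbit IgG, with 1 sample each. Cells were fixed with disuccinimidyl glutarate and then formaldehyde before sequencing (ChIP-seq). All 8759 regions of the list that the authors called for Carm1 against IgG were taken, out of 36793 regions in the Carm1, Jmjd1c and Med1 lists together. The Carm1 list gave only a start and an end for each site in the mm9 genome, so width was its only graded value. With 1 library per antibody no test between samples was possible, and the intervals given with shares (95%, Wilson) cover counting error over sites or genes only.

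Carm1 is recruited to DNA by sequence-specific factors and other coactivators, among them the p160 proteins (Ncoa1 to Ncoa3) and the acetyltransferases Ep300 and Crebbp, and it methylates histone H3 as well as proteins such as the Mediator subunit Med12 and the RNA-binding protein Pabpc1. Mediator, of which Med1 is a subunit, connects factors bound at enhancers with RNA polymerase II at promoters. Jmjd1c belongs to a family of histone H3 lysine 9 demethylases. In NSCs, SOX factors, NFI factors and the E-proteins that bind E-boxes are well known regulators of enhancers.

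The DNA under a Carm1 site is shown first, since the list holds no height. Each line gives 151 bases of the mm9 plus strand around the midpoint of the widest single-copy Carm1 site assigned to a gene by its nearest transcription start site (TSS), with its position, and capitals mark 4 motifs on either strand: SOX (ACAANG), E-box (CAGNTG), NFI (TTGGC, the short NFI recognition word) and AP-1 (TGANTCA). The genes were chosen from those with the most or the widest sites and from the marker lists described below, and were selected with their values known.
Btbd17 site, chr11:114656992-114657142: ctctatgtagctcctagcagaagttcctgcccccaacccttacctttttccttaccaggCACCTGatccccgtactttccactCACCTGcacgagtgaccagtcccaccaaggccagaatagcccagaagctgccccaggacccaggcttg
Jag1 site, chr2:137258788-137258938: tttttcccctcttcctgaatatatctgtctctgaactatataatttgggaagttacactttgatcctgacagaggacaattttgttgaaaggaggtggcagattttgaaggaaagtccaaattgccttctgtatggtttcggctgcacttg
Bahcc1 site, chr11:120123312-120123462: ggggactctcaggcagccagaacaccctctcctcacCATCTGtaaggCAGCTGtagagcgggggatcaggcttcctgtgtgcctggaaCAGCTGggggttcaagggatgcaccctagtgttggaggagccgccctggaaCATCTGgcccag
Myc site, chr15:61910955-61911105: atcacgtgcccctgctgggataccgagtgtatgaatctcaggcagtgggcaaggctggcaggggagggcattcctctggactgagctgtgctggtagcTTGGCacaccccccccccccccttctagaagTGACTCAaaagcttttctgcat
Nfib site, chr4:81681102-81681252: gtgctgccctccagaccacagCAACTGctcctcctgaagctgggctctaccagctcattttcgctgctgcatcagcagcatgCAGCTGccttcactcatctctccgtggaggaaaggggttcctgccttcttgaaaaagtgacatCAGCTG
Sox2 site, chr3:34987548-34987698: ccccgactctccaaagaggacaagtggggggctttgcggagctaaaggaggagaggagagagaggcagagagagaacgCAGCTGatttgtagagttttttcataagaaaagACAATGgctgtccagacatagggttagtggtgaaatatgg
Nes site, chr3:87785515-87785665: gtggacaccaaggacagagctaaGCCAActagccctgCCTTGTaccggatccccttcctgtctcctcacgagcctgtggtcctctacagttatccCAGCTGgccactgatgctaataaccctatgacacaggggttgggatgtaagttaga
Olig1 site, chr16:91306007-91306157: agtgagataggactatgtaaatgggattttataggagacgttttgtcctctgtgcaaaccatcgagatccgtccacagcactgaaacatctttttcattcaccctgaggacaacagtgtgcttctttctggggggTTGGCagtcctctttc
Fabp7 site, chr10:57504487-57504637: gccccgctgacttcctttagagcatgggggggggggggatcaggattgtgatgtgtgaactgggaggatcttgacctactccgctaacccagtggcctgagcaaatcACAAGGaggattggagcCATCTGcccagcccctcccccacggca
The site 438565 bp downstream of Sox2 and the site 10539 bp downstream of Nes, which encodes the NSC filament protein nestin, each held 1 SOX motif and 1 E-box, and the Nes site also held an NFI motif. The intronic Bahcc1 site held 4 E-boxes and the Nfib site held 3. The promoter site of Fabp7, a radial glia lipid-binding protein, held 1 SOX motif and 1 E-box, and the Myc site held 1 AP-1 and 1 NFI motif. None of the 4 motifs lay in these 151 bases of the Jag1 site, so that a wide site did not always carry one at its centre. A match of letters is a description of the sequence and does not show which factor was bound.

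Carm1 sites were narrow. They covered 2678 kb in all, which is 0.105% of the genome, and the widest 5% started at 494 bp. As many as 2882 sites (32.9%, 31.9 to 33.9) had exactly the smallest width of the list, 236 bp, against 1153 Jmjd1c sites (14.3%, 13.5 to 15.1) at that list's smallest width of 243 bp. The upper quartile of width was 339 bp for Carm1, 406 bp for Jmjd1c and 2015 bp for Med1. Only 418 Carm1 sites reached 500 bp and 8 exceeded 1 kb. By place on genes the median width was 267 bp at promoters, 268 bp in exons, 272 bp in introns and 268 bp between genes. By enhancer class it was 336 bp in super enhancers (SEs, the enhancer clusters with the most Med1), 297.5 bp in typical enhancers and 253 bp in no listed enhancer region. The labels of the Carm1 and Jmjd1c lists carry different numbers that resemble calling thresholds, so that the lists may not have been called alike, which limits comparisons of their widths and of their repeated DNA. The label of the Med1 list carries no number of this kind, and only 1 Med1 site had that list's smallest width of 414 bp. Comparisons with the Med1 list, also of place on genes, are limited in the same way.

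Over all Carm1 sites 56.4% overlapped a Med1 site and 37.5% a Jmjd1c site, and wide Carm1 sites did so much more often than narrow ones. A Med1 site overlapped 38.8% of the Carm1 sites of 236 bp, 58.8% of those of over 236 and under 300 bp, 67.3% of those of 300 to under 400 bp and 74.6% of those of 400 bp or more. For Jmjd1c the shares in the same order were 16.5%, 35.7%, 51.2% and 68.6%. Neither factor overlapped 56.1% of the narrowest class and 9.20% of the widest. A wide interval has more bases to overlap with, and the part of this in the shares was not tested. When midpoints had to lie within 200 bp of each other, the shares in the same order were 14.9%, 33.0%, 48.2% and 62.9% for Jmjd1c and 21.1%, 33.9%, 40.0% and 44.7% for Med1. The share inside SEs was 2.57% for the narrowest and 16.6% for the widest class.

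**Figure D1:**
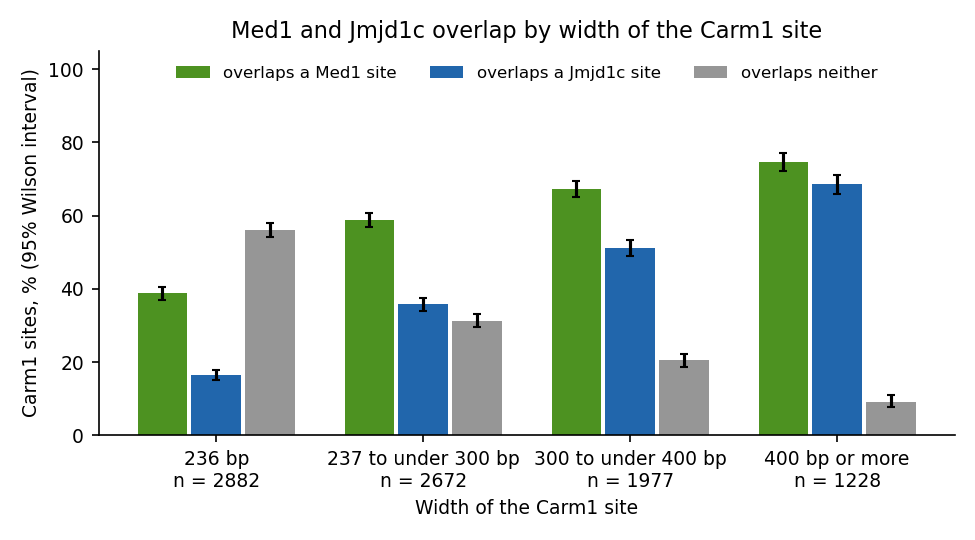
Share of Carm1 sites (y axis, percent, bars with 95% Wilson intervals) that overlap a Med1 site, a Jmjd1c site or neither by at least 1 bp, in 4 classes of Carm1 site width (x axis). Jmjd1c overlap was 16.5% in sites of 236 bp and 68.6% in sites of 400 bp or more, while the share with neither factor was 56.1% and 9.20%.

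The relation between width and Med1 overlap was seen mainly at distal sites. Outside promoters 25.5% of the 2180 sites of 236 bp overlapped a Med1 site, against 71.1% of the 920 sites of 400 bp or more. At promoters 80.3% of the 702 narrowest Carm1 sites overlapped a Med1 site, against 85.1% of the 308 widest. Med1 sites are wide (median 1502 bp), and with midpoints within 200 bp these shares were 39.2% and 44.5% at promoters, and 15.2% and 44.8% for the narrowest and widest sites elsewhere. Jmjd1c overlapped 16.2% of the narrowest and 40.3% of the widest promoter sites, and 16.6% and 78.0% of those elsewhere. Over all promoter sites Jmjd1c overlapped 25.7%, against 41.6% outside promoters.

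Carm1 sites were placed on the GENCODE vM1 protein-coding genes by their midpoints. Promoters, defined as 1.5 kb on either side of a TSS, make up 4.44% of the genome and held 2263 sites, a density 5.82 times that of the genome. Exons outside promoters held 141 sites (1.61%, 1.37 to 1.90), 0.753 times their genome share. Introns held 2662 sites (30.4%, 29.4 to 31.4), 0.909 times their share, and 3693 sites (42.2%, 41.1 to 43.2) lay between genes, 0.703 times the share of that class. Jmjd1c sites were distributed nearly alike (1.78% in exons, 32.6% in introns and 39.5% between genes). Med1 sites were at promoters far more often (45.8%) and fewer of them lay in introns (22.7%) or between genes (29.5%). In the longest transcript of each gene, first introns held 808 Carm1 sites or 3.68 per Mb, against 1823 sites or 2.91 per Mb in later introns. Sites in first introns also overlapped Med1 more often (56.7%, against 45.1% in later introns).

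The median Carm1 site lay 18309 bp from the nearest TSS, with quartiles of 1196 and 68072 bp. Sites fell into a sharp group at the TSS and a broad distal one: 1549 sites (17.7%, 16.9 to 18.5) lay within 250 bp of a TSS, 391 (4.46%) between 500 and 1500 bp, 2477 (28.3%) between 10 and 50 kb and 1435 (16.4%) between 100 and 500 kb. Overlap with Med1 was 86.0% within 250 bp, 50.3% at 10 to 50 kb and 20.0% for the 240 sites farther than 500 kb. Jmjd1c overlap was 23.95% within 250 bp, 44.5% at 10 to 50 kb and 27.1% beyond 500 kb. At promoters Carm1 sites lay more often upstream than downstream of the start: 1296 of 2263 midpoints were upstream (57.3%, 55.2 to 59.3) with a median position of -29 bp. Jmjd1c was nearly even (52.0% upstream, median -10 bp) and Med1 lay more often downstream (41.7% upstream, median 27 bp).

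**Figure D2:**
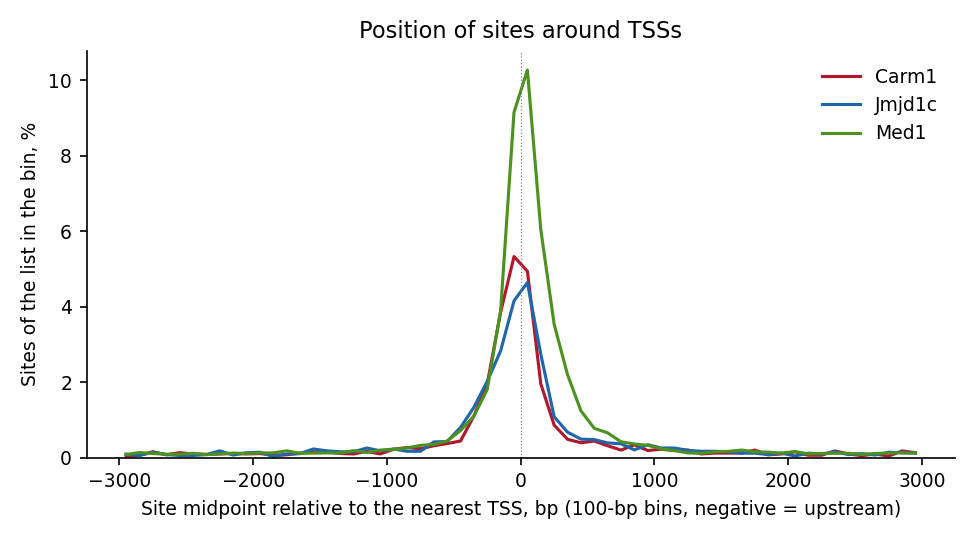
Share of the sites of each list (y axis, percent) whose midpoint fell in each 100-bp bin around the nearest TSS (x axis, bp, negative is upstream), for Carm1, Jmjd1c and Med1. The highest Carm1 bin was centred 50 bp upstream of the TSS and held 5.33% of its sites, while the highest bins of Jmjd1c (4.64%) and Med1 (10.3%) were centred 50 bp downstream.

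Some Carm1 sites lay in DNA with several copies in the genome, where a read cannot be placed with certainty. Every 32-base word of each site was looked up in mm9, and 746 sites (8.52%, 7.95 to 9.12) had at least 50% of their words more than once. The same measure gave 7.47% and 7.01% for windows moved by 2 kb to either side, 2.53% for Jmjd1c sites and 1.31% for Med1 sites. By the share with no repeated word at all, the order against the moved windows and Med1 was turned. This share was 83.03% for Carm1 sites, 64.79% and 65.93% for the moved windows, 90.75% for Jmjd1c and 45.88% for Med1 sites. Med1 sites are much wider, and the part of width in these shares was not tested. Of these 746 sites 13.1% overlapped Med1 and 16.9% overlapped Jmjd1c, against 60.4% and 39.4% of the other 8013 sites. They made up 27.5% of the sites farther than 500 kb from a TSS, 39.0% of those on the X chromosome and 11.7% of those of 236 bp. Outside promoters and listed enhancer regions lay 3644 Carm1 sites, of which 64.1% overlapped neither factor and 16.5% were of this kind.

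Of the 10 widest sites, 7 were of this multi-copy kind. The first, of 4534 bp at chr1:24618424-24622957, lay over the gene models Gm10925 and Gm10222, and 98.8% of its words also occur in the mitochondrial genome. A site of 1270 bp on the mitochondrial genome itself (154 to 1423, nearest TSS mt-Nd1) covered the ribosomal RNA genes mt-Rnr1 and mt-Rnr2. Sites of 1666, 1289 and 990 bp at the start of the assembled chromosome 9 (nearest TSSs Gm10722, Gm10715 and Gm17535) repeated themselves every 234 bp. Sites of 1437 bp on chromosome 17 (361609 bp from Pgk2), 1207 bp on chromosome 2 (Gm10800) and 951 bp on chromosome 6 (183804 bp from Samd9l) also had most of their words more than once, and the site of 1052 bp near Ly6c2 had 43.2%. Of the 10 widest sites all 10 overlapped Jmjd1c and 1 overlapped Med1. In the enhancer table, the region over Gm10800 had an IgG signal of 78987 and a Med1 signal of 60942, so that the control exceeded the ChIP there.

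On the chromosomes, the widest site with under 1% of its words repeated was at Btbd17, a BTB domain gene: 1150 bp at chr11:114656493-114657642, 120 bp downstream of the TSS, and it overlapped both Med1 and Jmjd1c. Next by this measure came a site of 947 bp 316483 bp upstream of Jag1, the gene of a Notch ligand, and a site of 938 bp in an intron of Bahcc1, which lay in an SE. Sites of 890 bp (58232 bp upstream of Gm628), 863 bp (455741 bp downstream of Irx1, a homeobox factor), 848 bp (10951 bp upstream of Rgs8, a regulator of G-protein signalling) and 845 bp (1611 bp upstream of Mpg, a DNA glycosylase) followed. All of these overlapped both Med1 and Jmjd1c. The widest promoter sites after Btbd17 were at Slc1a4, an amino acid transporter (841 bp, 336 bp upstream), and at Repin1, a zinc finger gene (822 bp, 133 bp upstream, with Med1 but without Jmjd1c).

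Most Carm1 sites stood alone. Neighbouring midpoints were a median of 128860 bp apart, and when sites within 12500 bp of each other (the distance at which the study joined enhancers) were joined, 7244 remained single, 609 clusters held a pair and 89 clusters held 3 or more (297 sites, 3.39%, 3.03 to 3.79). Sites in clusters of 3 or more were wider (median 293 bp, against 279 bp for pairs and 266 bp for single sites). Med1 overlapped 69.7% of them, 73.8% of paired and 52.9% of single sites, and Jmjd1c overlapped 53.2%, 45.7% and 35.5%. SEs held 31.99% of the sites in clusters of 3 or more, 18.1% of the paired and 3.84% of the single sites. Multi-copy DNA held 14.5%, 5.01% and 8.86% in the same order. The shares for clusters of 3 or more include the largest and second largest cluster, described next. These held 17 and 6 sites, of which 17 and 5 were multi-copy and 0 overlapped Med1.

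The 17 sites of the largest cluster spanned 38256 bp of the chromosome 9 satellite-like stretch described above, and all 17 were multi-copy, 15 overlapped Jmjd1c and 0 overlapped Med1. The second, of 6 sites near Gm17379 on the X chromosome, had 5 multi-copy sites and 0 that overlapped Med1. The next clusters were in single-copy DNA on chromosome 11: 5 sites over 23664 bp at Bahcc1, all with Med1 and 4 with Jmjd1c, and 5 sites over 33278 bp at Sept9, a septin cytoskeleton gene, all with Med1 and 3 with Jmjd1c. The fifth place was shared in number by 9 clusters of 4 sites. These lay near Gm10800, Pgk2, Rara (the retinoic acid receptor alpha), Socs3 (a feedback inhibitor of cytokine signalling), 6430527G18Rik, Wscd1, Chd2 (a chromatin remodeller), Upb1 and Myo10. All 4 sites lay in SEs at Rara, 6430527G18Rik, Chd2 and Myo10.

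Each Carm1 site was then assigned to the protein-coding gene with the nearest TSS. Of 22380 genes, 2495 (11.1%) had a site within 1.5 kb of a TSS, 5737 (25.6%) were the nearest gene to at least 1 site, and 157 (0.702%) to 5 or more. At promoters, 2390 genes had 1 site, 101 had 2 and 4 had 3, namely Trib1 (a pseudokinase), Sertad2, Entpd1 and Arhgap23. The genes with the most sites were Zfp608 (17 sites), a zinc finger gene; Myc (13), the growth-promoting transcription factor; Plxna2 (11), a semaphorin receptor; Jmjd1c (11); Pabpc6 (10); and Auts2 (10), a neurodevelopmental gene. A further 13 genes had 9 sites each, among them Bahcc1, Sept9, Svil (a membrane-linked actin-binding protein), Nfib, Sox2, Mef2c and Epha4 (an ephrin receptor).

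Many of these genes stand in gene-poor surroundings, and the count of sites went with the stretch of genome for which a gene has the nearest TSS. No gene with a stretch under 50 kb had 5 or more sites, while 2.86% of genes with 200 to 500 kb and 8.06% of those with over 500 kb did. The stretch was 1209 kb for Zfp608, 1443 kb for Myc, 877 kb for Plxna2, 1653 kb for Jmjd1c and 1940 kb for Auts2, or 1.41, 0.901, 1.25, 0.665 and 0.516 sites per 100 kb. Bahcc1 had 7.13 sites per 100 kb over 126 kb and Sept9 3.68 over 245 kb, so that both genes were dense as well as rich in sites. Both lie on chromosome 11, which had 7.35 sites per Mb, against 2.28 to 4.35 on the autosomes other than 11 and 15. The IgG signal was also highest there, and the part of the chromosome in these densities was not tested.

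The sites of the leading genes were mostly distal. Distances here are to the nearest start of any annotated transcript, which can lie inside the gene. Over all Carm1 sites the overlap was 56.4% with Med1 and 37.5% with Jmjd1c, and with so few sites per gene the counts are a description only. At Zfp608 they ran from 647856 bp upstream to 449986 bp downstream of a TSS, with 1 at a promoter inside the gene (301 bp wide, 899 bp upstream of that start, with Med1 and Jmjd1c). Of the 17 sites 10 overlapped Jmjd1c, 5 overlapped Med1, and 5 were 236 bp wide. Myc had 0 promoter sites: the nearest was 92053 bp downstream, 622 bp wide and inside an SE. Of the 13 Myc sites 8 overlapped Med1 and 9 overlapped Jmjd1c, and the farthest lay 797530 bp downstream. At Jmjd1c, the gene of the other factor immunoprecipitated here, 8 of 11 sites overlapped Med1 and 5 overlapped Jmjd1c, and the widest (544 bp) lay 8668 bp downstream of a TSS. Sox2, the SOX factor that maintains NSCs, had sites 9823 and 21039 bp downstream of its TSS, both 236 bp wide, and the other 7 lay 192749 bp or more away. The region of 192749 to 206184 bp upstream of Sox2 and that of 491875 to 499257 bp downstream were SEs. At Nfib, whose product is an NFI factor, 7 of 9 sites overlapped Med1, and a site of 359 bp lay inside the gene, 1283 bp upstream of an internal start. At Epha4 1 of 9 sites overlapped Med1, 2 overlapped Jmjd1c and 3 were multi-copy.

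Gene lists for NSCs and related functions were set beside the shares of all genes (11.1% with a promoter site and 25.6% nearest to a site). Among 15 markers of NSCs and radial glia, 3 had a promoter site and 11 were nearest to at least 1 site, 29 sites in all. Of these 29 sites 21 overlapped Med1 and 11 overlapped Jmjd1c, beside 56.4% and 37.5% of all Carm1 sites. The share with Jmjd1c was near that of all sites. The promoter sites were at Fabp7 (125 bp upstream of the TSS), Hes1, a Notch-induced repressor (133 bp upstream) and Msi2, an RNA-binding protein (208 bp upstream). Slc1a3, a glial glutamate transporter, had 3 sites up to 555 bp wide, all with Med1, and Sox9 had 4 distal sites, of which 2 overlapped Med1. Of 9 neuronal genes 0 had a promoter site and 2 (Stmn2 and Dcx) were nearest to a site. Of 10 markers of endothelial, microglial, blood, mesodermal, muscle and liver cells 0 had a promoter site and 2 (Cdh5 and Pecam1) were nearest to one. The shares of these last lists nearest to a site (22.2% and 20.0%) were close to that of all genes (25.6%), and 0 promoter sites allow shares of up to 29.9% and 27.8%, above the 11.1% of all genes. The lists therefore say little about the NSC label, and the series holds no expression data.

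Regulators fell into several groups, which are again to be read beside 11.1% of all genes with a promoter site and 25.6% nearest to a site. Of all genes 0.702% had 5 or more sites, and 8.06% of those with a stretch of over 500 kb did. The stretch was 1443 kb for Myc, 562 kb for Spred2 and 214 kb for Etv5. For Sox2, Sox6 and Sox5 it was 836, 682 and 1350 kb, and its part in these counts was not tested. Of 19 genes that belong to EGF and FGF signalling or restrain it, 8 had a promoter site, 15 were nearest to a site and 3 had 5 or more: Myc, Spred2, an inhibitor of the Ras pathway (7 sites, 2 with Med1, 0 with Jmjd1c and 2 multi-copy) and Etv5, an ETS factor induced by FGF (5 sites, all with Med1 and 4 with Jmjd1c). Egfr had 2 intronic sites of 489 and 400 bp in an SE, 45994 and 34137 bp upstream of the nearest annotated start. Among 11 NFI, E-protein and Id factors 6 had a promoter site (Nfia, Nfib, Nfic, Tcf3, Tcf4 and Tcf12) and 9 were nearest to a site. Among 11 SOX factors 2 had a promoter site (Sox4, 15 bp upstream, and Sox6), 10 were nearest to a site and Sox2, Sox6 (6 sites) and Sox5 (5 sites) had 5 or more. Of 17 Notch pathway genes 2 (11.8%, near the share of all genes) had a promoter site (Hes1 and Hey2) and 10 were nearest to a site, with the coactivator Maml3 at 6 sites and the receptors Notch1 and Notch2 at 1 each.

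Glial lineage genes had distal sites and, in the astrocyte list, promoter sites, beside the same shares of all genes (11.1% and 25.6%). Of 10 oligodendrocyte lineage genes 0 had a promoter site and 4 were nearest to a site, with Olig1, a lineage transcription factor, at 4 sites of 236, 320, 378 and 761 bp between 6722 bp upstream and 44812 bp downstream, all with Med1 and Jmjd1c and 3 of them in an SE. Of 8 astrocyte genes 3 had a promoter site, namely Gfap (inside the gene, 1384 bp upstream of an internal start), S100b (100 bp upstream) and Aldoc, and 5 were nearest to a site.

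The remaining lists stand beside the same shares, 11.1% and 25.6%. Among 8 protein arginine methyltransferases 0 had a promoter site and 1, Prmt8, was nearest to a site, 92337 bp downstream of its TSS. The Carm1 gene itself was the nearest gene to none. Among 12 partners and substrates of Carm1, 3 had a promoter site (Med12 at 36 bp downstream of an internal start, Ncoa2 at 112 bp upstream of an internal start and Pabpc1 at 174 bp upstream, each with Med1) and 6 were nearest to a site. Of 10 SMAD and BMP targets 0 had a promoter site and 4 were nearest to one (Ski with 3, Smad7 with 2, Id3 and Junb with 1 each). With 0 promoter sites, shares of up to 32.4% (methyltransferases) and 27.8% (SMAD and BMP targets) remain possible. Of 9 AP-1 factors 2 had a promoter site (Jun and Jund) and 5 were nearest to a site, and of 10 cyclins and Cdk inhibitors 3 had a promoter site (Ccnd2, Ccne1 and Cdkn1b) and 8 were nearest to a site. The 3 sites of Ccnd1, the cyclin that acts downstream of growth factors, lay 154044 to 171757 bp upstream in an SE.

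**Figure D3:**
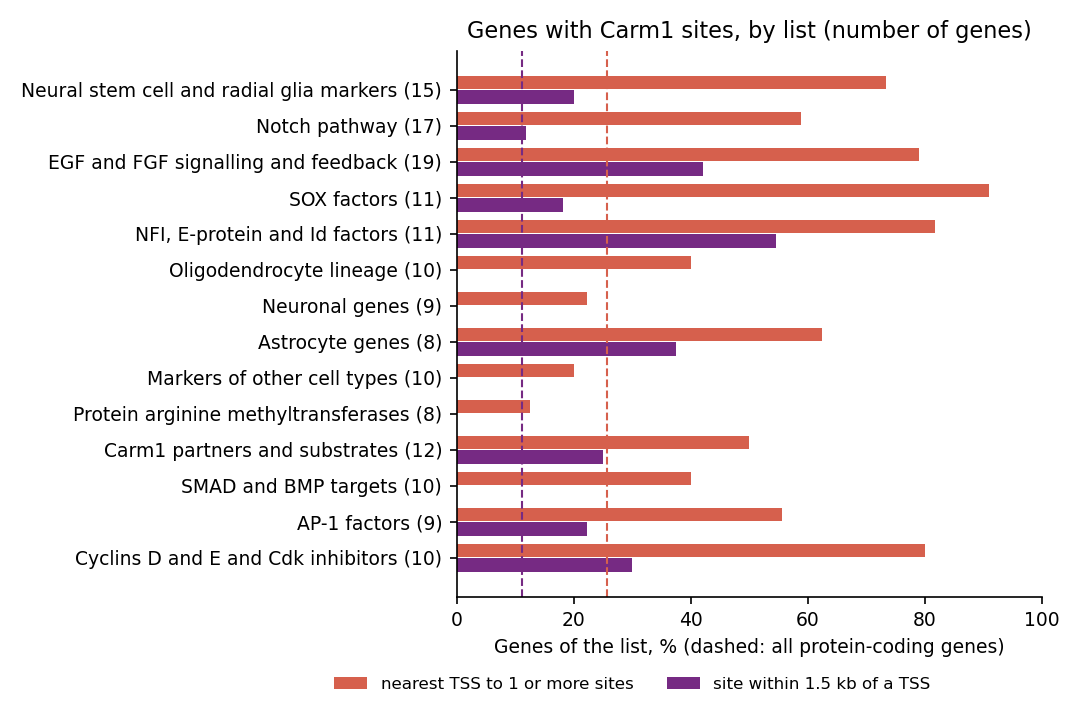
Share of the genes of 14 lists (x axis, percent, number of genes in brackets) that were nearest to at least 1 Carm1 site (red) or had a Carm1 site within 1.5 kb of a TSS (purple), with the shares over all 22380 protein-coding genes as dashed lines (25.6% and 11.1%). The SOX list (90.9%) and the NFI, E-protein and Id list (81.8%) had the highest shares of nearest genes, and the arginine methyltransferases (1 of 8) the lowest. With a site within 50 kb of the gene 5′ end counted instead, the arginine methyltransferases had 5 of 8.

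The lists were small and their genes differed in surroundings from the average gene. The median stretch over which a gene has the nearest TSS was 45.5 kb over all genes, 297 kb for the SOX list, 202 kb for the NFI, E-protein and Id list, 185 kb for the EGF and FGF list and 169 kb for the neuronal list. The share of genes nearest to a site was 11.05% for stretches under 20 kb and 52.8% for 200 to 500 kb, and the part of this in the counts of the lists was not tested. In a fixed window of 50 kb on either side of the gene 5′ end, 40.0% of all genes had a site. By this count the arginine methyltransferases had 5 of 8 (62.5%), and the neuronal (22.2%) and other cell type (30.0%) lists were the lowest. Every other list was above 40.0%, up to 81.8% for the NFI, E-protein and Id list.

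Carm1 sites were also set against 8089 enhancer regions, defined in the study by Ep300 and H3K27ac and ranked by Med1. The table used here holds fewer typical enhancers than the study describes, so that the shares below, and the count of sites outside enhancer regions, hold for this table only. Of these 2605 (32.2%, 31.2 to 33.2) held a Carm1 site, namely 370 of 445 SEs (83.1%, 79.4 to 86.3) and 29.2% (28.2 to 30.3) of the other, typical enhancers. SEs are longer, with a median of 15.5 kb for those with and 10.9 kb for those without a Carm1 site. For typical enhancers these lengths were 2.66 and 1.49 kb, and the part of length in the shares was not tested. The median Med1 minus IgG signal per kb was 312.7 in regions with a Carm1 site and 196.2 in regions without (1.59 times), with quartiles of 187.2 to 511.3 and 93.8 to 326.6. The IgG signal per kb was also higher with Carm1 (151.7, against 122.0 without, 1.24 times), and its part in the difference was not tested. In typical enhancers of 1 to 3 kb, which removes most of the difference in length, the ratio was 1.84 for Med1 minus IgG and 1.43 for IgG. In SEs the direction was opposite: the median was 359.8 in those with and 404.2 in those without a Carm1 site (0.890 times), with widely overlapping quartiles (246.7 to 596.5 and 208.0 to 639.8). Most Carm1 sites in 1 region were found in the SE with its nearest TSS at Gm6772 (8 sites over 57.2 kb, rank 6 by Med1).

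The motif content of the sites was measured within 100 bp of the midpoint, next to windows of the same length 2 kb to either side and, for promoters, next to windows at the TSSs of all 22380 genes. Motifs of SOX, E-box and NFI factors were more frequent at distal Carm1 sites than beside them. Outside promoters the SOX motif was in 46.6% (45.4 to 47.9) of sites and 36.4% of flanks, the E-box in 51.9% (50.7 to 53.2) and 39.5%, and the NFI motif in 47.5% (46.3 to 48.7) and 28.5%. SOX motif and E-box stood together in 24.9% of these sites, against 13.9% of flanks. How far this joint share follows from the shares of the single motifs was not tested. At promoters the order was turned for SOX (26.4% of sites, 35.3% of flanks, 25.4% of all promoter windows) and E-box (35.0%, 41.2% and 36.7%), and the NFI motif was in 41.3%, 29.1% and 35.2%.

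Of all 6-base words in at least 3% of single-copy distal sites within 50 bp of the midpoint, the one with the highest ratio to the flanks was an E-box, CAGCTG (13.9% of 5829 sites, 4.73% of flanks, 2.95 times), and TTGGCA, an NFI word that the tables spell TGCCAA on the other strand, ranked among the top 3 (14.4%, 5.16%, 2.79 times). Both words were singled out after these values were seen. Counted in the wider window of 100 bp, CAGCTG was in 23.8% of sites outside promoters (9.14% of flanks) and TTGGCA in 23.7% (9.86%), 2.60 and 2.40 times. The Bahcc1, Nfib, Sox2 and Nes sequences printed above carry CAGCTG. In typical enhancers the ratios were 3.08 and 2.97, in SEs 2.98 and 2.56, and for distal sites in no enhancer region 2.17 and 2.03. Sites with Med1 and Jmjd1c held CAGCTG in 30.0% (10.3% of flanks) and single-copy sites with neither factor in 15.9% (8.63%).

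**Figure D4:**
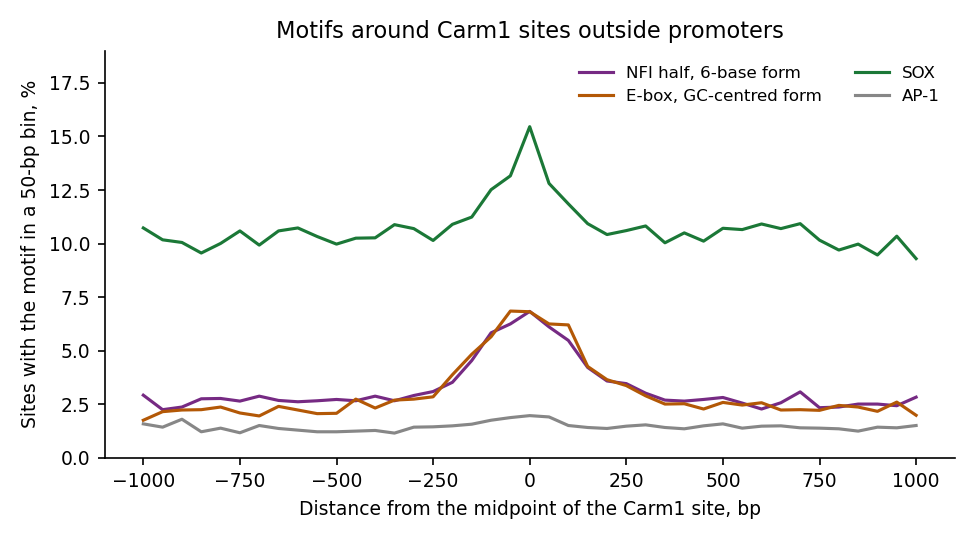
Share of Carm1 sites outside promoters (y axis, percent) with each motif in 50-bp bins by distance from the site midpoint (x axis, bp). At the midpoint the SOX motif was in 15.5% of sites, the GC-centred E-box in 6.82%, the 6-base NFI word in 6.83% and AP-1 in 1.97%. At 1000 bp towards lower genome coordinates the shares were 10.7%, 1.75%, 2.92% and 1.59%. At 1000 bp towards higher coordinates they were 9.30%, 1.99%, 2.83% and 1.51%.

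At promoter sites the frequent motifs were also frequent at promoters in general, with the ETS and NFI motifs above their shares in all promoter windows. The SP/KLF motif (GGGCGG) was in 42.9% (40.8 to 44.9) of promoter sites and the ETS motif (CCGGAAG) in 12.3% (11.04 to 13.7), against 3.78% and 0.773% of flanks, while all promoter windows held them in 40.0% and 9.38%. The CRE (TGACGTCA) was in 1.46% of promoter sites and 1.93% of all promoter windows. Outside promoters AP-1 was in 8.05% (7.41 to 8.74) of sites and 6.28% of flanks, the octamer of POU factors (ATGCAAAT) in 2.74% and 1.48%, the RFX word (GTTGCCAT) in 1.52% and 0.639%, the TEAD motif (GGAATG) in 12.1% and 10.5%, part of the CTCF motif (AGGGGGC) in 3.48% and 2.26%, and the nuclear receptor word (AGGTCA) in 10.8% and 12.2%, the only one of these that was less frequent at sites than beside them. The median GC content was 61.7% at promoter sites and 48.8% at other sites, against 44.8% and 44.3% in their flanks, and its part in the motif ratios was not tested.

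Narrow sites carried less of this sequence pattern. Among all sites of 236 bp the SOX motif was in 38.1% (37.1% of flanks), the E-box in 42.5% (39.8%) and the NFI motif in 39.1% (28.5%). In sites of 400 bp or more these shares were 42.0% (35.0%), 49.2% (40.5%) and 52.0% (26.995%).

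By chromosome, Carm1 sites were densest on chromosome 11, with 7.35 per Mb (6.87 to 7.86, 95% Poisson interval), followed by chromosome 15 with 4.67 (4.26 to 5.11). The other autosomes had 2.28 to 4.35 per Mb. Jmjd1c sites on chromosome 11 (7.24 per Mb) and Med1 sites (15.2 per Mb) were also at their highest density there. The IgG signal in typical enhancers had a median of 203.4 per kb on chromosome 11 and 172.0 on chromosome 15, against 115.2 to 133.7 on the other autosomes, and its part in the counts was not tested. Per 100 protein-coding genes chromosome 11 had 52.8 Carm1 sites, within the range of the other autosomes. Only chromosomes 12, 15 and 18 had more, with 5.902 to 7.935 genes per Mb, against 13.921 on chromosome 11. Chromosomes 7 and 19, with 14.604 and 12.452 genes per Mb, had 23.99 and 30.94 sites per 100 genes. Outside promoters chromosome 11 was also the densest, with 4.716 sites per Mb, followed by chromosome 15 with 3.544. The part of gene density in the counts was not tested. The X chromosome had 0.870 sites per Mb (0.732 to 1.03), with an IgG signal of 67.35 per kb.

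**Figure D5:**
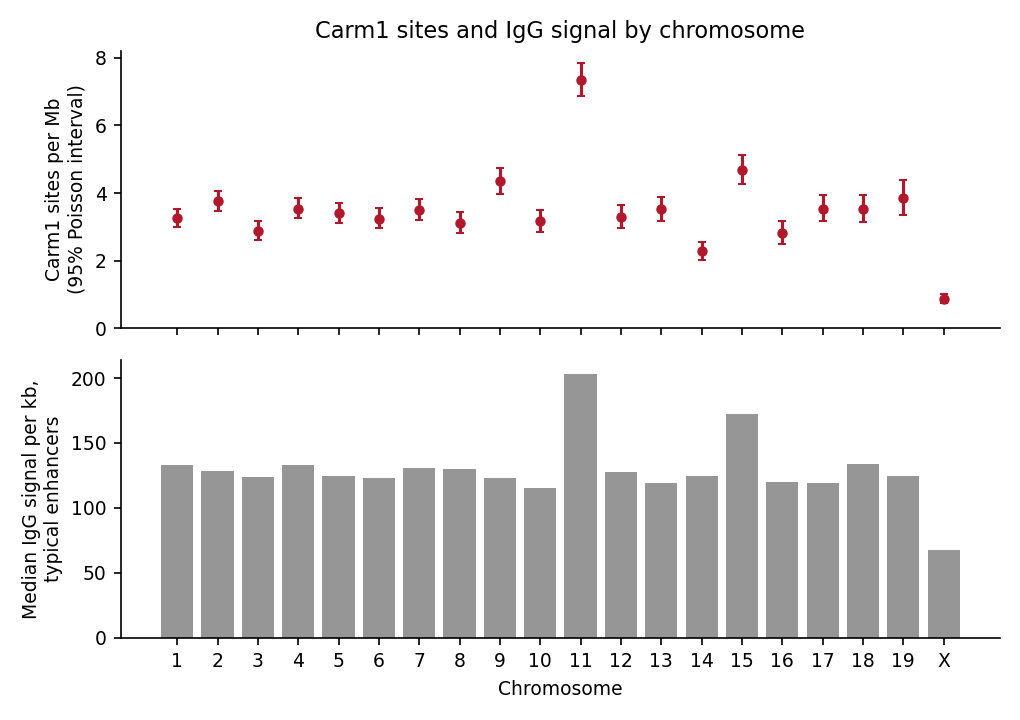
Carm1 sites per Mb with 95% Poisson intervals (upper panel) and median IgG signal per kb over the typical enhancers (lower panel, bars from 0) for each autosome and the X chromosome (x axis). Chromosome 11 had the highest values of both, 7.35 sites per Mb and an IgG signal of 203.4 per kb, and the X chromosome the lowest, 0.870 and 67.35.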

How the data were processed

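ChIP-seq of NS-5 NSCs was used with 1 sample per antibody. Per the methods of the study, the authors mapped reads to mm9 with Bowtie 0.12.7 (best alignment reported), removed duplicates (Picard 1.81 in the processing notes), merged replicates where there were several and called sites with MACS 1.4.2 against IgG at default settings, although the deposited Carm1 and Jmjd1c lists are labelled with different numbers that resemble other thresholds, which could not be settled. The label of the Med1 list holds no number of this kind. Deposited site lists hold coordinates only. The deposited enhancer table gives Med1 and IgG signal (read coverage summed by ROSE and scaled to mapped reads). Read totals were not given in the sources used here. Members and gene lists were chosen with earlier results of these data known. The rule for named genes took those of the 10 widest sites, the 10 genes with most sites, the 5 clusters with most sites and members of the 14 lists. Genes outside it (further wide sites free of repeated words, genes with 9 sites or 3 promoter sites, clusters of 4 sites and the SE with most sites) were named after their values were seen. 1 gene covered by the rule is not reported here. Sox1 and Map2 were not matched in GENCODE vM1, and Kmt2d was matched by its older symbol Mll2. Sites were placed by midpoint (promoter half-width 1.5 kb, 70064 TSSs). Repeated words had 32 bases and a threshold of 50%. Overlap meant at least 1 bp. Functions were tested on simulated intervals. Python 3.11.15, numpy 2.4.6, pandas 2.3.3, scipy 1.17.1, numba 0.67.0 and matplotlib 3.10.9 were used.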

Additional observations from a re-analysis of the deposited data

How the results depend on the processing

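The list gives no height or p-value, read totals are unknown and each antibody had 1 library, so no result could be compared with the spread between libraries. No paired analysis was possible because no group had replicates. Values were compared over 62 alternatives for 25 results, of which 13 were counted as unchanged and 49 as moved. For shares, moved means by more than the counting interval. The median distance and the ratios among these results have no counting interval of this kind. The share of sites at promoters (25.8%) was 24.3% with 1 kb, 32.8% with 5 kb and 28.3% with TSSs of every gene type. With genes of every type 31.4% of sites were intronic and 38.5% intergenic. The median distance to a TSS (18309 bp) was 29890 bp with gene 5′ ends only and 11849 bp with every gene type. The share in clusters of 3 or more (3.39%) was 0.559% with a gap of 5 kb and 9.86% with 25 kb. The share of genes with a promoter site was 10.5% with 1 kb, 14.1% with 5 kb and 9.67% with gene 5′ ends, and the share with 5 or more sites was 0.357% when sites inside or within 10 kb of a gene were counted. With midpoints within 200 bp, 32.6% of sites coincided with Med1 and 34.7% with Jmjd1c. Among sites at least as wide as the median, 67.4% overlapped Med1, 53.1% overlapped Jmjd1c and 1.87% were in clusters. Leaving out multi-copy sites, an alternative chosen after seeing the data, gave 27.3% at promoters, 40.2% intergenic, a median distance of 16539 bp, 3.01% in clusters, 60.4% with Med1 and 39.4% with Jmjd1c. With 50 bp on either side the SOX, E-box and AP-1 motifs were in 24.6%, 27.9% and 3.40% of all sites, and in the called intervals in 52.1%, 59.2% and 9.51%, against 41.4%, 47.6% and 6.94%. Without chromosomes 11 and 15 the autosomes had 3.34 sites per Mb, against 3.598 with them.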
